A study of Mus musculus with 16 samples.

Results

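The comparison described here sets 4 libraries labelled MCAO+Ctrl-exos against 4 libraries labelled Sham, 8 of the 16 libraries of the study, over all genes of the deposited table. The 8 libraries were chosen by their labels. MCAO stands for blocking the middle cerebral artery, a surgery that makes an ischemic stroke in the cortex that this artery feeds, and Sham mice served as the controls of that surgery. The MCAO+Ctrl-exos mice also received 150 µg of exosomes, small vesicles that cells shed, into the tail vein, repeated at intervals of 3 days from surgery on. The exosomes were purified from the plasma of Apoe knockout mice, which were kept on normal chow or on a western diet. Which diet stands behind the code Ctrl is not spelled out in the labels. Mice of all groups carry the strain label C57BL/6, and a protocol text shared by all samples speaks of Apoe knockout mice fed a western diet for 12 weeks without naming the groups it covers. Sham mice got no exosomes, so the comparison holds stroke, exosomes and injections together. The 4 libraries labelled MCAO, from mice with stroke and no exosomes, are used beside it. The age and sex of the mice, the time from surgery to sorting and whether each library came from 1 mouse are not given in the sources used here.

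Cells of the cortex, taken from the infarct in mice with stroke, were stained for CD45 and CD11b, sorted, and labelled as microglia. Microglia are the resident macrophages of the brain. At rest they survey the tissue through receptors for nucleotides and chemokines and keep a gene program that depends on the factor Sall1 and on TGF-beta signals. After a stroke they change shape and gene expression, and monocytes, neutrophils and border macrophages, which also bear CD45 and CD11b, enter the injured tissue and take up dead cells and lipid-rich debris. Levels were measured by sequencing of amplified cDNA. They are given in FPKM, sequenced fragments scaled to transcript length and library size, and differences as log2 fold changes of FPKM + 1 with the standard error of the limma fit. That scale understates the change of genes near 0 FPKM. Amounts of rise and numbers in brackets after a gene are such log2 fold changes unless another unit is given. A gene is said to rise or fall where its Benjamini-Hochberg adjusted p in limma was below 0.05.

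The values of a library summed to 758283 to 818774 FPKM in Sham and to 784006 to 983648 FPKM in MCAO+Ctrl-exos, where replicate 1 was the lowest. The number of genes with at least 1 FPKM was 8813 to 9663 in Sham and 9267 to 9689 in MCAO+Ctrl-exos. The depth of the libraries is unknown. The 10 most abundant genes held 27.5 to 30.6% of the sum in Sham and 14.1 to 16.2% in MCAO+Ctrl-exos. Across genes, which are not independent replicates, Sham libraries correlated with each other at r = 0.868 to 0.915, MCAO+Ctrl-exos libraries at 0.909 to 0.937, and libraries of the 2 groups at 0.654 to 0.725. GC-rich transcripts, the top 20% by GC content, lay higher in MCAO+Ctrl-exos, by a median of 0.49 to 0.84 on the log2 scale against the Sham mean. Among the Sham libraries the same median against the MCAO+Ctrl-exos mean ranged from -1.08 in replicate 1 to -0.22 in replicate 4. The genes of the sort were present in each library: Ptprc, which encodes CD45, at 82.9 to 173 FPKM in Sham and 91.1 to 121 FPKM in MCAO+Ctrl-exos, and Itgam, which encodes CD11b, at 82.8 to 121 and 78.5 to 136 FPKM. Neither passed the test, and the sign of both differences changed under other settings.

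Of 10846 genes tested, 4194 passed (38.7%). Of these, 2392 were higher in MCAO+Ctrl-exos (22.1% of the tested genes) and 1802 were lower (16.6%). These shares are the background for the counts of every gene list below. The 4 values of each group did not overlap for 3630 genes (33.5%), and 3304 genes both passed and did not overlap. An absolute log2 fold change of at least 1 was reached by 3784 of the genes that passed, and one of at least 5 by 178. The median log2 fold change of all tested genes was 0.12. Quantile normalization moved that median to -0.05 and gave 2066 higher and 2116 lower genes, and scaling the libraries to equal totals gave 1933 and 2134, so the sign of small shifts depends on the scaling. Leaving out MCAO+Ctrl-exos replicate 1, the library with the low total, left 3851 genes.

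**Figure D1:**
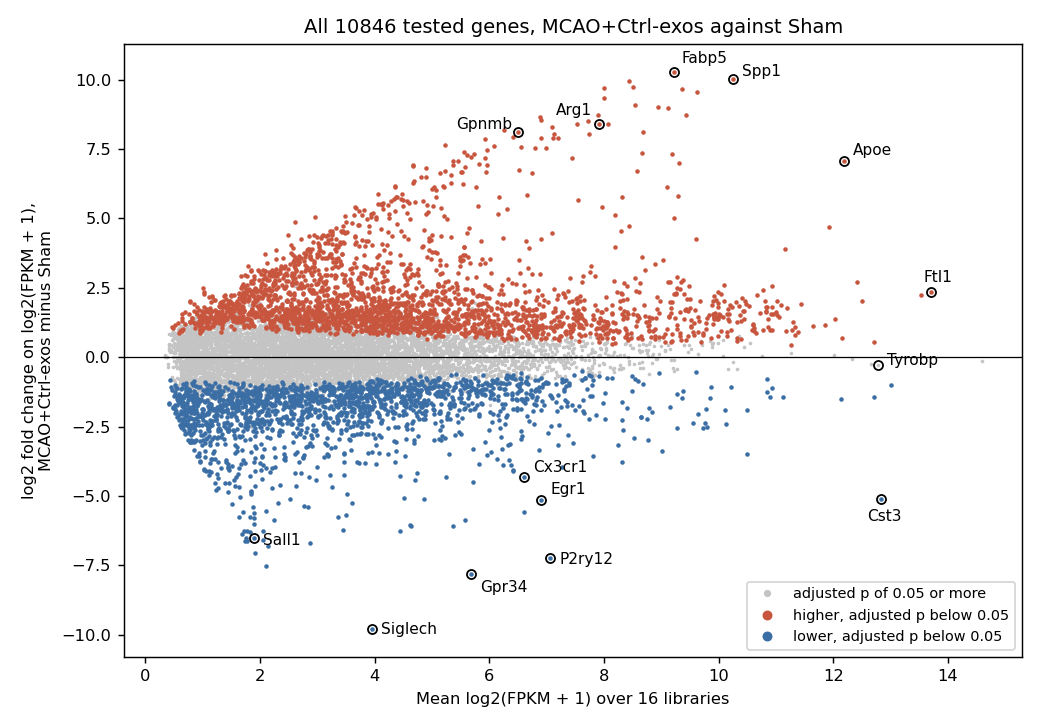
Each point is 1 of the 10846 tested genes, with its mean log2(FPKM + 1) over 16 libraries on the x axis and its log2 fold change between MCAO+Ctrl-exos and Sham on the y axis; red and blue points passed an adjusted p of 0.05. Fabp5 and Spp1 reach 10.28 and 10.01 at the top, Siglech reaches -9.79 at the bottom, and Cst3, abundant in Sham, lies at -5.12.

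Genes of resting microglia were far lower in the MCAO+Ctrl-exos libraries. All 25 genes of the homeostatic microglia list passed and fell, with a median log2 fold change of -5.12, against 0.12 over all tested genes, and 24 of the 25 did not overlap between groups. Their summed level was 146983 to 171297 FPKM in Sham and 4445 to 6585 FPKM in MCAO+Ctrl-exos. Cst3 alone held most of that sum in each Sham library, at 117893 to 139126 FPKM. It stood at 2179 to 4370 FPKM in MCAO+Ctrl-exos, so the sums mainly follow this gene. The list was drawn up for this study's cell type with earlier results known, so its direction is a description of these libraries. Fewer microglia among the sorted cells and less RNA of these genes per cell cannot be told apart in bulk libraries.

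Siglech, which encodes a sialic acid binding lectin of microglia, stood at 1978, 2334, 2217 and 1969.7 FPKM in Sham replicates 1 to 4 and at 0.51, 2.5, 1.39 and 1.62 FPKM in MCAO+Ctrl-exos replicates 1 to 4. Its log2 fold change of -9.79 ± 0.43 was the most negative of all tested genes (adjusted p = 4.51e-13). P2ry12, the ADP receptor by which resting processes sense injured cells, was at 5377, 3998, 4323 and 3156 FPKM in Sham and 17.2, 17.1, 39.8 and 40.5 FPKM after stroke with exosomes, a log2 fold change of -7.24 ± 0.31. The groups lay far apart for both genes, and MCAO+Ctrl-exos replicates 3 and 4 held more P2ry12 than replicates 1 and 2. Gpr34, a receptor for lysophosphatidylserine, fell from 4385, 2803, 2726 and 1292 FPKM to 16.9, 8.55, 7.42 and 11.4 FPKM. Sall1, the transcription factor that holds microglial identity, fell from 112, 96.02, 105 and 93.3 FPKM to 0.25, 0.08, 0.06 and 0.13 FPKM. Every MCAO+Ctrl-exos library was below 1 FPKM of Sall1, and every Sham library was above 90 FPKM.

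The secreted protease inhibitor gene Cst3 had the highest level of all genes in each Sham library, at 117893, 139126, 120712 and 122161 FPKM. It stood at 2179, 4060.3, 4319 and 4370.4 FPKM in MCAO+Ctrl-exos, lowest in replicate 1. The fractalkine receptor gene Cx3cr1 fell from 845, 886, 893 and 1354 FPKM to 39.4, 75.02, 61.5 and 29.1 FPKM, and Tmem119, a surface marker of microglia, from 207, 532, 361 and 726 FPKM to 24.1, 53.4, 56.6 and 28.6 FPKM. Neither pair of groups overlapped. Csf1r, the receptor for the growth factors that keep microglia alive, ranged over 519 to 1039.8 FPKM in Sham and 129.7 to 209 FPKM in MCAO+Ctrl-exos and fell (-2.08). Among non-overlapping genes of the upper 50% by level, the range the naming rule covers, the other leading falls were Hpgd (-6.27), Crybb1 (-6.24), Il1a (-6.08), Sparc (-6.08), Ecscr (-6.03), P2ry13 (-5.87), Inka1 (-5.75), Sult1a1 (-5.69), Cd81 (-5.57), Tspan7 (-5.26) and Egr1 (-5.13), each given as a log2 fold change.

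Trem2 and Tyrobp, which encode a lipid-sensing receptor and its signalling adaptor, are required for the phagocyte program of microglia. Trem2 fell, from 898, 1520.3, 1035 and 1693 FPKM to 453, 511, 672 and 527 FPKM (-1.21 ± 0.22). Tyrobp did not pass, at 11519, 11474, 8692 and 7654 FPKM in Sham and 4326, 9049, 9369 and 10633 FPKM in MCAO+Ctrl-exos (-0.29 ± 0.23, adjusted p = 0.323). Its MCAO+Ctrl-exos replicate 1 lay below all Sham libraries and the other 3 among them. It passed as lower with equal totals (-0.52, adjusted p = 0.0329) and with length and GC trends removed (-0.84, adjusted p = 0.00445).

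**Figure D2:**
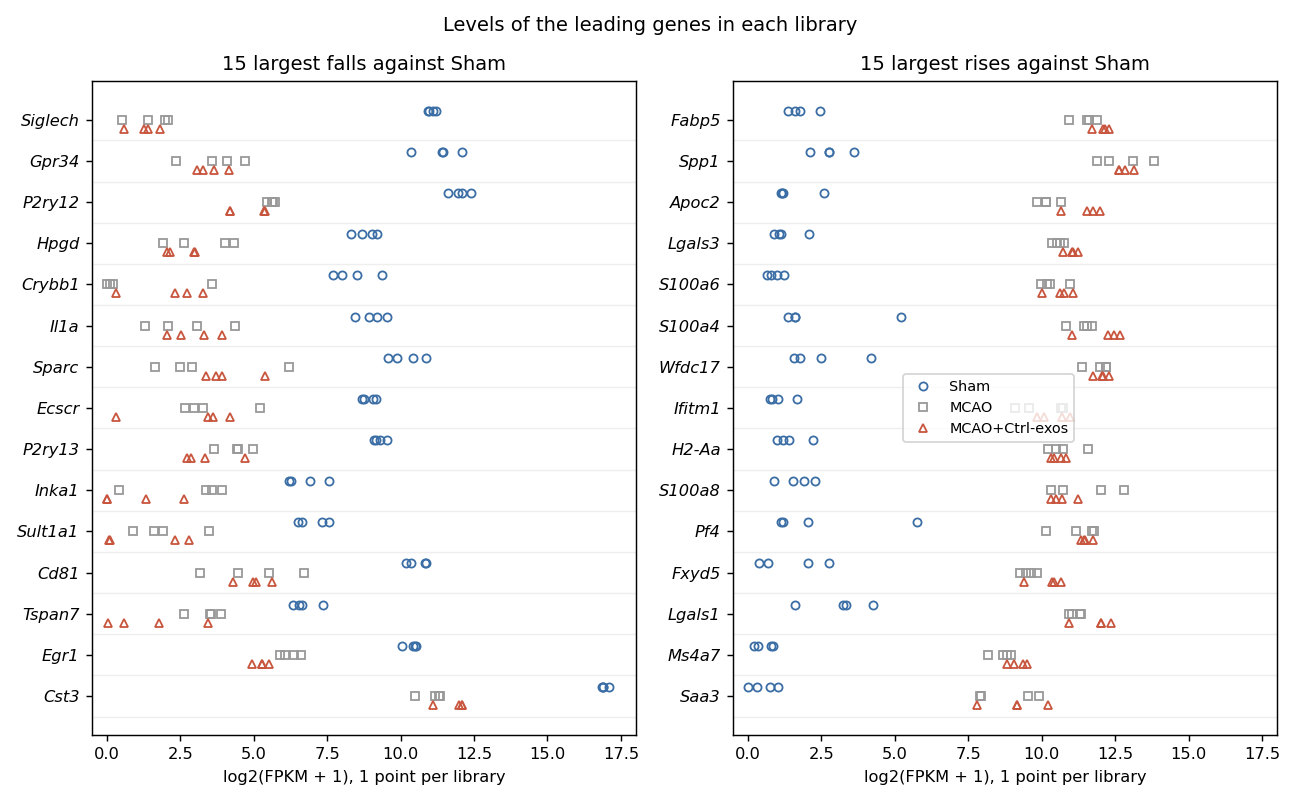
Levels as log2(FPKM + 1) of the 15 largest falls (left) and the 15 largest rises (right) among non-overlapping genes of the upper 50% by level, predicted gene models left out, with 1 point per library for Sham, MCAO and MCAO+Ctrl-exos. Sham points lie apart from both stroke groups for each gene; among the rises Sham replicate 4 is high for S100a4 (36.3 FPKM) and Sham replicate 3 for Pf4 (52.9 FPKM).

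Factors that set the identity of macrophages gave more falls than rises. Of 22 tested genes of the microglia transcription factor list, 5 rose and 11 fell, with a median of -0.92. The share of rises was near the 22.1% of all tested genes, and that of falls was above 16.6%. Bhlhe40, a repressor induced by activation, rose from 0.06 FPKM or less in each Sham library to 66.6, 45.2, 48 and 51.5 FPKM. Nr1h3, the oxysterol receptor LXR alpha, rose from 0, 0, 0.82 and 0 FPKM to 16.3, 32.04, 41.8 and 18.8 FPKM. In the TGF-beta pathway 6 of 16 tested genes fell and 2 rose. The receptor genes Tgfbr1 and Tgfbr2 fell (-3.52 and -1.83), while Tgfbi, which encodes a matrix protein induced by TGF-beta, rose by 6.71. Tgfbr1 stood at 546, 282, 396 and 303 FPKM in Sham and 48.9, 27.1, 26.9 and 26.9 FPKM in MCAO+Ctrl-exos. Receptors and enzymes of extracellular nucleotides split evenly, with 6 of 16 higher and 6 lower. Of these 16 genes 6 reached 1 FPKM in only 1 of the 2 groups and could enter the test through it. The rises included Enpp1 (3.23), an ectonucleotidase gene. Among 19 ion channels and transporters 4 rose, a share near that of all tested genes, and 6 fell. Slc2a5, the fructose transporter gene, stood at 72.6, 202, 102 and 253 FPKM in Sham and at 0.11 FPKM or less in each MCAO+Ctrl-exos library, and Kcnn4, the gene of a calcium-activated potassium channel, rose from 0, 1.59, 0.08 and 2.41 FPKM to 21.8, 68.6, 44.9 and 33.05 FPKM.

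Genes of lipid-laden phagocytes were far higher. The largest rise of all tested genes was that of Fabp5, a fatty acid binding protein gene, from 2.05, 1.56, 2.41 and 4.46 FPKM in Sham to 3343, 4400.3, 4609 and 5063 FPKM in MCAO+Ctrl-exos (10.28 ± 0.26, adjusted p = 3.43e-16). Spp1, which encodes osteopontin, went from 5.73, 3.35, 5.69 and 11.1 FPKM to 6338, 7278, 9128 and 6319 FPKM (10.01 ± 0.37). Lgals3, which encodes the glycan-binding galectin-3, went from 1.07, 0.84, 1.18 and 3.22 FPKM to 1686, 2079, 2131 and 2406 FPKM (9.73 ± 0.24), and Gpnmb, a glycoprotein gene of cells with a loaded lysosome, from 0.32, 0.17, 0.24 and 0.81 FPKM to 449, 285, 363 and 411 FPKM (8.09 ± 0.22). In all 4 genes Sham replicate 4 was the highest Sham library and still lay far below the lowest MCAO+Ctrl-exos library. Of 26 tested genes of the disease-associated phagocyte list 18 rose and 3 fell (Cd9, Trem2 and B2m), with a median of 2.30.

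Genes of lipid handling were mostly higher. Of 19 tested genes of lipid uptake and droplets 16 rose and none fell, with a median of 2.53. Msr1, a scavenger receptor gene, went from 1.7, 0.48, 0.37 and 1.09 FPKM to 132, 139, 91.4 and 163 FPKM. Plin2, which coats lipid droplets, went from 8.56, 10.2, 6.22 and 4.36 FPKM to 1795, 1049.8, 1236 and 1293 FPKM. Fabp4, another fatty acid binding protein gene, rose by 6.90 and Hilpda, an inhibitor of droplet lipolysis, by 3.94. Of 17 tested genes of lipoproteins and cholesterol efflux 11 rose and 2 fell. In these lists 4 of the 19 and 5 of the 17 genes reached 1 FPKM in only 1 of the 2 groups and could enter the test through it. Apoe, the main lipid carrier of the brain, stood at 81.8, 119, 112 and 204 FPKM in Sham and at 17235, 17017, 20499 and 12930.2 FPKM in MCAO+Ctrl-exos (7.08 ± 0.25). The gene was thus read in every library, and values per gene do not show whether the reads come from an intact transcript. Its neighbours in the lipoprotein family Apoc1 and Apoc2 rose by 7.63 and 9.96, and Pltp, which moves phospholipids between lipoproteins, by 7.47. The falls were those of Abca9 (-3.20) and Mylip (-2.95), which encodes a ligase that degrades the LDL receptor.

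Uptake of dead cells gave 9 rises and 5 falls among 23 tested efferocytosis genes. The share of falls was near the 16.6% of all tested genes. Pros1, which bridges dying cells to phagocytes, fell from 145, 91.01, 83.7 and 119 FPKM to 9.15, 6.48, 10.8 and 6.53 FPKM, whereas Anxa1 and Anxa5, which bind exposed phospholipids or calm inflammation, rose by 6.97 and 5.66. In the lysosome 19 of 31 tested genes rose and 3 fell, with a median of 1.15. With length and GC trends taken out of each library and quantile normalization, 11 rose. Ctsb, a cathepsin gene, went from 908, 1422, 1180.0 and 1261 FPKM to 8987, 6164, 8746 and 7645 FPKM. Ctss, an abundant cathepsin gene of microglia, fell from 13707, 12454, 14309 and 10298 FPKM to 6062, 5614, 7570.4 and 6051 FPKM, and Ctsf from 57.9, 97.9, 51.97 and 121 FPKM to 1.34, 2.76, 0 and 0.51 FPKM.

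Promoter sequences were at hand for 8755 of the tested genes, matched by symbol to RefSeq (GRCm38.p6, the first start listed per gene), and the 250 bases before the start were searched on both strands for 7 motifs. These were CACGTG, bound by lysosomal regulators, GAAANNGAAA of interferon-responsive genes, TGACGTCA of cyclic AMP responsive genes, the CArG box, TGACNNNGC of antioxidant genes, TGAGTCA of AP-1 and GAGGAAGT of PU.1. The reverse of TGAGTCA can lie inside TGACNNNGC. CACGTG was present for 7 of 25 lysosome genes with a promoter (28%) and 8.7% of all 8755. Of the 7, 5 rose and 1 fell, and of the 18 without it 11 rose and 1 fell. The 2 stretches shown, with CACGTG in capitals and read 5′ to 3′ on the gene's strand, come from Lamp1, a lysosomal membrane protein gene that rose by 1.3, and Mcoln1, a lysosomal calcium channel gene that rose by 1.36 with overlapping groups, and by 0.93 with an adjusted p of 0.0523 in limma once length and GC trends were removed.
Lamp1 promoter, GRCm38.p6 chr8:13159053-13159152, plus strand, 108 to 9 bases before the start: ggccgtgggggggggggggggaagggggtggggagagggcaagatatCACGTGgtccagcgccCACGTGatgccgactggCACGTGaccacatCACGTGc
Mcoln1 promoter, GRCm38.p6 chr8:3500401-3500500, plus strand, 118 to 19 bases before the start: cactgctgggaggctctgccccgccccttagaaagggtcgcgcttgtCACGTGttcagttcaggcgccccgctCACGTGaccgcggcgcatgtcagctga
Lamp1 holds 4 matches in the 100 bases and Mcoln1 holds 2. A match is a string of letters and was not tested for binding.

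Inflammatory genes gave calls in both directions. Of 21 tested pro-inflammatory mediators 7 rose and 9 fell, and the median, -0.54, and the mean, 0.43, differ in sign. Il1b, the gene of interleukin-1 beta, rose from 0.5, 1.32, 1.72 and 15.4 FPKM in Sham to 465, 655, 600.3 and 364 FPKM in MCAO+Ctrl-exos (7.17 ± 0.52), with Sham replicate 4 the highest of its group. Il1a, its relative, went the other way, from 588, 486, 744 and 350.0 FPKM to 14.1, 4.81, 8.81 and 3.13 FPKM (-6.08 ± 0.56). Il6 fell from 32.7, 26.2, 39.6 and 7.49 FPKM to 0, 0, 0.87 and 0.48 FPKM. Tnf did not pass, at 24.9, 61.5, 40.5 and 58.6 FPKM in Sham and 37.5, 20.5, 17.3 and 22.96 FPKM in MCAO+Ctrl-exos (-0.87 ± 0.45, adjusted p = 0.135), but passed as lower with length and GC trends removed and quantile normalization (-1.14, adjusted p = 0.0408). Saa3, an acute phase gene, rose by 8.56. Ptgs1, the constitutive prostaglandin synthase gene, fell (-4.15), and so did the costimulator gene Cd86 (-2.34). The NF-kB list held 6 rises and 5 falls among 22 tested genes, beside shares of 22.1% and 16.6% over all tested genes. Bcl3 rose by 3.46, and the feedback genes Nfkbiz and Tnfaip3 fell (-3.50 and -2.22). The list's median was 0.21. It was -0.06 with length and GC trends removed and -0.16 with quantile normalization added, each with 3 rises.

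Chemokines gave 12 rises and 4 falls among 19 tested genes, with a median of 2.36. Of these 19 genes 5 reached 1 FPKM in only 1 of the 2 groups and could enter the test through it. Pf4, which encodes platelet factor 4 and is also made by macrophages, rose from 1.3, 1.17, 52.9 and 3.16 FPKM to 3459, 2855, 2605 and 2768 FPKM. Sham replicate 3 stood apart at 52.9 FPKM. Cxcl2, which draws neutrophils, rose from 3.89, 0.33, 0.27 and 0.91 FPKM to 447, 371, 409 and 279.9 FPKM, Ccl2, which draws monocytes, from 196, 128, 218 and 115 FPKM to 594, 866, 1092 and 632 FPKM, and Cxcl16 by 2.71. Ccl3 fell from 1743, 1354, 2135 and 1509.8 FPKM to 127, 125, 109 and 120.5 FPKM, a gene of early microglial activation that is also induced by tissue dissociation. Among the receptors, 9 of 18 tested genes rose and 3 fell. Ccr2, the Ccl2 receptor of monocytes, went from 6.53, 4.71, 2.08 and 0.65 FPKM to 169, 254, 196 and 238 FPKM, and Cxcr4 from 0.08 FPKM or less to 63.6, 42.5, 39.9 and 44.4 FPKM.

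Sensors of microbes and antibodies stayed near the share of calls over all genes. Of 21 tested Toll-like receptors and adaptors 4 rose and 4 fell. Tlr8 rose from 0.03 FPKM or less to 28.3, 17.5, 20.3 and 15.9 FPKM, while Tlr7 fell from 151, 100.4, 112 and 73.3 FPKM to 22.3, 22.3, 20.5 and 39.2 FPKM, and Tlr3 fell from 37.96, 27.2, 39.1 and 29.4 FPKM to 1.28, 4.72, 0.01 and 0.54 FPKM. Of 16 tested Fc receptor genes 4 rose and 3 fell (6 with equal totals). Fcgr4 rose by 2.07 and Fcrls, a microglial relative of these receptors, fell (-2.25). Complement gave 7 rises and 5 falls among 15. The alternative pathway genes Cfp and Cfb rose by 7.18 and 3.68, and the 3 genes of the C1q chains fell, C1qa (-1.1, with overlapping groups), C1qb (-1.51) and C1qc (-1.42). In the NADPH oxidase list 6 of 12 rose. Cybb, the catalytic subunit, went from 1.18, 0.35, 0.58 and 0.09 FPKM to 74.2, 73.3, 70.2 and 65.8 FPKM, and Cyba, its partner, from 278, 857, 459.9 and 1001 FPKM to 2203, 3168, 3124 and 2658 FPKM.

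The chains of MHC class II, which present antigen to T cells, were higher. H2-Aa stood at 1.3, 1, 1.65 and 3.69 FPKM in Sham and 1269, 1602, 1818 and 1361 FPKM in MCAO+Ctrl-exos (9.09 ± 0.30). Cd74, the invariant chain, stood at 18.1, 36.4, 7.22 and 21.3 FPKM in Sham and 945, 1826, 2091 and 876 FPKM in MCAO+Ctrl-exos. H2-Ab1 and H2-Eb1 rose by 7.33 and 8.04. The list had 7 rises and 5 falls among 15 genes, and 3 falls without Sham replicate 2 or MCAO+Ctrl-exos replicate 4. In the MHC class I list 9 of 19 rose and 2 fell, but 1 rose with length and GC trends removed and quantile normalization. B2m, the shared light chain, fell from 15407, 14407, 17416 and 7523 FPKM to 3421, 5307, 6271 and 4957 FPKM, and H2-D1, a heavy chain gene with near-identical relatives, rose by 1.24.

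Interferon-responsive genes gave 14 rises and 4 falls among 30 tested, with a median of 1.38, and 2 falls without Sham replicate 3. The rises were led by genes of the Ifitm cluster, whose relatives are alike enough that reads can be shared. Ifitm1 went from 0.78, 0.68, 1.03 and 2.15 FPKM to 921, 1979, 1662 and 1073 FPKM (9.33 ± 0.33) and Ifitm2 from 3.42, 0.97, 27.3 and 2.88 FPKM to 1116, 1650.0, 1667 and 1817 FPKM. Sham replicate 3 stood apart in Ifitm2 and in Ifitm6, where it had 11.04 FPKM and the other Sham libraries at most 0.24 FPKM. Irf1, which encodes a transcription factor of the interferon response, fell (-1.21). GAAANNGAAA was present for 10 of the 25 interferon genes with a promoter (40%) and for 2.88% of all 8755, and 3.2% of the genes that rose and 3.61% of those that fell held it. Of the 10, 7 rose and none fell, and of the 15 without it 4 rose and 3 fell. The 7 include Isg15, a ubiquitin-like modifier gene with overlapping groups (1.56, adjusted p = 0.0464 in limma), whose call was lost in most other settings, such as without Sham replicate 1, 2 or 3 or MCAO+Ctrl-exos replicate 1, 2 or 3 (adjusted p of 0.0857 to 0.176). The stretches shown are those of 4 genes with the motif that rose, with its matches, read on either strand, in capitals. Ifi207 encodes a DNA-sensing family member, Oas3 an RNA-sensing synthetase and Bst2 a protein that tethers viruses. Their log2 fold changes were 8.11 (Ifitm2), 5.08 (Ifi207), 2.76 (Oas3) and 1.73 (Bst2).
Ifitm2 promoter, GRCm38.p6 chr7:140955962-140956061, minus strand, 100 to 1 bases before the start: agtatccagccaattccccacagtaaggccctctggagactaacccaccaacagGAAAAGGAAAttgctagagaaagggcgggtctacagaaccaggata
Ifi207 promoter, GRCm38.p6 chr1:173741810-173741909, minus strand, 100 to 1 bases before the start: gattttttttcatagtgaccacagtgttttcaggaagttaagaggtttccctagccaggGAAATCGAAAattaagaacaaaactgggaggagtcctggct
Oas3 promoter, GRCm38.p6 chr5:120777680-120777779, minus strand, 120 to 21 bases before the start: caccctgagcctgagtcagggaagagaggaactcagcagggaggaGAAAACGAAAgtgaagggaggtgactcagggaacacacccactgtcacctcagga
Bst2 promoter, GRCm38.p6 chr8:71537548-71537647, minus strand, 175 to 76 bases before the start: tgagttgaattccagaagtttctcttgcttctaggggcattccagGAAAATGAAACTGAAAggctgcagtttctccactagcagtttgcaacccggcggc
In Bst2 the 2 matches overlap into 1 run.

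Immediate early genes, which cells switch on within minutes of a stimulus and which dissociation of tissue is known to induce, were lower. Of 23 tested genes 14 fell and 4 rose, with a median of -1.62. Egr1 went from 1069, 1462, 1453 and 1362 FPKM in Sham to 45.1, 37.8, 29.4 and 37.5 FPKM in MCAO+Ctrl-exos (-5.13 ± 0.22), and Fos from 3708, 3742, 3462 and 2599 FPKM to 874, 511, 717 and 493 FPKM (-2.40 ± 0.21). Zfp36, whose protein degrades cytokine mRNA, fell from 1649, 3414, 2884 and 2465 FPKM to 528, 343, 432 and 486 FPKM. Junb did not pass (-0.41 ± 0.29, adjusted p = 0.27), and its MCAO+Ctrl-exos replicate 1 stood at 414 FPKM against 260 to 269 FPKM in the other 3. It passed as lower without Sham replicate 1 (-0.71, adjusted p = 0.0362) and with length and GC trends removed (-0.87, adjusted p = 0.00515). Fosl2, another AP-1 subunit gene, rose from 1.47, 1.43, 2.16 and 1.34 FPKM to 43.3, 45.3, 44.5 and 33.7 FPKM. TGACGTCA was found for 2 of 21 of these genes with a promoter (9.52%, against 2.8% of all), Btg2 and Dusp1, which encode a growth inhibitor and a MAP kinase phosphatase and fell (-2.79 and -2.05). Of the 19 genes without TGACGTCA 10 fell and 4 rose, and 2.64% of all genes that fell held it. Btg2 and Dusp1 are shown with the motif in capitals.
Btg2 promoter, GRCm38.p6 chr1:134079268-134079367, minus strand, 212 to 113 bases before the start: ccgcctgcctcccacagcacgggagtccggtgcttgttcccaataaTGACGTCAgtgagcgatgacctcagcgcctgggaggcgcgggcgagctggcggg
Dusp1 promoter, GRCm38.p6 chr17:26508562-26508661, minus strand, 189 to 90 bases before the start: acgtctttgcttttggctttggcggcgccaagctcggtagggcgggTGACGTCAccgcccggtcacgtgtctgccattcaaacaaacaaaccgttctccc
The CArG box was found for 2 of the 21 (9.52%, against 1.19% of all), Zfp36, which fell, and Dusp5, which rose by 1.92, with adjusted p of 0.0501 to 0.0504 in limma without Sham replicate 1, 2 or 3. Of the 19 genes without a CArG box 11 fell and 3 rose.

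Ferroptosis is a form of cell death by iron-dependent lipid peroxidation, checked by the glutathione peroxidase Gpx4, and the title of the study names it. Of 24 tested genes that protect from it 17 rose and none fell, with a median of 1.81, and of 18 that promote it 8 rose and 4 fell, with a median of 0.58. Gpx4 stood at 269, 439, 282 and 359 FPKM in Sham and 823, 1121, 1038 and 1601 FPKM in MCAO+Ctrl-exos (1.75 ± 0.22). Slc7a11, the cystine importer gene, rose from 0.03, 0.54, 0.11 and 0.12 FPKM to 2.57, 4.51, 3.26 and 3.14 FPKM. Gsr, which regenerates glutathione, went from 10.6, 4.51, 2.14 and 6.14 FPKM to 107, 53.1, 54.2 and 72.05 FPKM. Of the genes that promote it, the oxidase gene Cybb and the heme oxygenase gene Hmox1 rose by 5.58 and 5.14. Acsl4, which supplies the oxidizable lipids, fell, from 39.9, 32.1, 38.05 and 15.6 FPKM to 11.8, 9.17, 7.07 and 18.6 FPKM (-1.35 ± 0.35), with overlapping groups. Its fall was -0.59 with an adjusted p of 0.138 in limma once length and GC trends were removed.

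Iron genes rose in storage and heme breakdown. The ferritin chains were among the most abundant genes. Fth1 stood at 3327, 4512, 4004 and 3603 FPKM in Sham and 15239, 20457, 21045 and 16423 FPKM in MCAO+Ctrl-exos (2.24 ± 0.17). Ftl1 stood at 2974, 5398, 3730.0 and 5819 FPKM in Sham and 17433, 22595, 23861 and 23821 FPKM in MCAO+Ctrl-exos (2.33 ± 0.25). Hmox1, heme oxygenase 1, rose from 10.2, 35.8, 2.7 and 24.7 FPKM to 1246, 236, 330.4 and 614 FPKM, with replicate 1 the highest. Ncoa4, which delivers ferritin to the lysosome, fell from 112, 71.1, 72.4 and 62.2 FPKM to 16.8, 16.9, 15.2 and 23.9 FPKM, and Slc40a1, the iron exporter ferroportin, from 127, 39.01, 104 and 51.05 FPKM to 10.4, 2.92, 0.14 and 3.31 FPKM. Tfrc, the transferrin receptor gene, did not pass (0.84 ± 0.54, adjusted p = 0.232), but passed as higher with length and GC trends removed (1.58, adjusted p = 0.0138). In all 10 of 25 tested iron genes rose and 4 fell, a share of falls near the 16.6% of all tested genes. Of 19 tested targets of NRF2, the factor of the antioxidant response, 15 rose and none fell, with a median of 2.02. Txn1, thioredoxin, went from 91.4, 93.5, 73.9 and 96.4 FPKM to 925, 1039.7, 915 and 1196 FPKM and Srxn1, sulfiredoxin, from 0.02, 0.28, 0.02 and 0.08 FPKM to 35.7, 13.7, 13.7 and 20.8 FPKM. TGACNNNGC was found for 3 of 15 of these genes with a promoter (20%) and 12.1% of all. Of the 3, 2 rose, and of the 12 without it 10 rose.

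Genes of repair and of sugar metabolism were mostly higher. Of 24 tested genes of alternative activation 16 rose and 2 fell, with a median of 2.46, and 4 fell without Sham replicate 1. Of these 24 genes 9 reached 1 FPKM in only 1 of the 2 groups and could enter the test through it. Arg1, arginase 1, stood at 0.81, 0.63, 1.21 and 1.82 FPKM in Sham and 986, 538, 841 and 536 FPKM in MCAO+Ctrl-exos (8.40 ± 0.34). Chil3, a chitinase-like protein gene, stood at 1.72, 0.85, 1.3 and 2.38 FPKM in Sham and 842, 770.0, 919.7 and 849.6 FPKM in MCAO+Ctrl-exos. Of 15 tested polyamine genes 6 rose and 2 fell, Odc1 and Sat1 (-0.95 and -1.07). That share of falls was near the 16.6% of all tested genes. Odc1 lost its call without Sham replicate 2, 3 or 4 or MCAO+Ctrl-exos replicate 3 or 4, with adjusted p of 0.057 to 0.0826 in limma. Of 18 tested glycolysis genes 14 rose. Pkm, the last enzyme of the pathway, went from 33.6, 48.8, 15.9 and 44.6 FPKM to 846, 425, 570.0 and 386 FPKM, while Hk2, a first-step hexokinase, fell from 70.9, 50.1, 66.2 and 60.7 FPKM to 18.4, 20.7, 24.6 and 18.9 FPKM. The hypoxia list had 8 rises and 4 falls among 15, and 5 of the 15 likewise reached 1 FPKM in only 1 group. Vegfa, the angiogenic factor, rose from 2.4, 0.16, 0 and 0 FPKM to 25.2, 32.4, 30.1 and 18.6 FPKM.

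Housekeeping machinery was moderately higher. Of 40 tested ribosomal protein genes 37 rose and none fell, with a median of 1.3, and of 41 respiratory chain genes 31 rose and none fell, with a median of 1.31. Rps18 went from 1009.5, 946, 836 and 953 FPKM to 2457, 3933, 2918 and 4230.4 FPKM and Ndufa1 from 432, 326, 386 and 389 FPKM to 1170.5, 1969.8, 1491 and 1735 FPKM. With length and GC trends removed and quantile normalization these counts were 20 and 17. Of 25 proteasome genes 14 rose, but 7 rose and 3 fell with quantile normalization, 8 rose without Sham replicate 1, and 9 without Sham replicate 3 or MCAO+Ctrl-exos replicate 3 or 4. Splicing factors gave no rise and 11 falls among 29, with a median of -0.40, and with length and GC trends removed 3 rose and 8 fell. Clk1, a kinase of splicing factors, fell from 881, 595, 754 and 413 FPKM to 76.7, 59.4, 71.7 and 74.2 FPKM. Within MCAO+Ctrl-exos, replicate 1 had the lowest ribosomal (58004 FPKM), respiratory chain (24122 FPKM) and proteasome (6029 FPKM) sums, and also the lowest total (784006 FPKM). Replicate 4 had the highest ribosomal (95960 FPKM) and proteasome (8838 FPKM) sums and the highest total (983648 FPKM). The respiratory chain sum was highest in replicate 2 (39244 FPKM). These sums are not scaled to equal totals, and the part of GC content in these rises was not tested. Of 24 cell cycle genes 13 rose and 1 fell, at low levels, and 9 of the 24 likewise reached 1 FPKM in only 1 group. Mcm2, a replication helicase gene, stood at 0, 0, 0.05 and 0.1 FPKM in Sham and 2.19, 2.79, 5.78 and 2.98 FPKM in MCAO+Ctrl-exos (2.04). With length and GC trends removed and quantile normalization it was 1.09 and did not pass (adjusted p = 0.0537 in limma). In the p53 and apoptosis list 11 of 23 rose and 4 fell, with Cdkn1a up by 3.22 and Casp8 down (-1.47). The integrin list had 11 rises and 5 falls among 24. In both lists the share of falls was near the 16.6% of all tested genes. Of 24 sterol and fatty acid synthesis genes 5 rose, a share near the background of 22.1%. The heat shock and unfolded protein list had 7 rises and 6 falls among 23. The dendritic cell markers had 5 and 4 among 11, of which 7 reached 1 FPKM in only 1 group. Of these markers 2 fell without Sham replicate 1 or 2 or MCAO+Ctrl-exos replicate 2, 3 or 4.

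Genes of movement and matrix were mostly higher. Of 32 tested actin and cytoskeleton genes 24 rose and 1, Tuba1a, fell, and of 23 matrix and protease genes 14 rose and 4 fell. Of these 23 genes 7 reached 1 FPKM in only 1 of the 2 groups and could enter the test through it. Vim, the intermediate filament vimentin, stood at 4.31, 0.54, 1.04 and 1.18 FPKM in Sham and 877, 853, 968 and 906 FPKM in MCAO+Ctrl-exos (8.52 ± 0.33), and Fn1, fibronectin, at 0.15 FPKM or less and 149, 148, 193 and 104 FPKM. Thbs1, thrombospondin 1, rose from 1.16, 1.06, 2.14 and 1.37 FPKM to 826, 406, 608 and 535 FPKM, and Cd44, a hyaluronan receptor gene, by 6.91. The S100 and annexin list, calcium-binding proteins of which several mark infiltrating cells, had 13 rises and 1 fall among 16, with a median of 5.33. S100a6 went from 0.98, 0.56, 0.73 and 1.34 FPKM to 1033, 2141, 1570.3 and 1750.1 FPKM, and S100a8, a calprotectin subunit gene, from 2.79, 0.83, 1.86 and 3.91 FPKM to 2397, 1647, 1261 and 1425 FPKM. S100a4 went from 2.03, 2.06, 1.54 and 36.3 FPKM to 2104, 5676, 4893 and 6475 FPKM, with Sham replicate 4 apart from its group. Within the same upper 50% by level the other leading rises were Wfdc17 (9.54), Fxyd5 (8.74), Lgals1 (8.72) and Ms4a7 (8.64), as log2 fold changes.

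**Figure D3:**
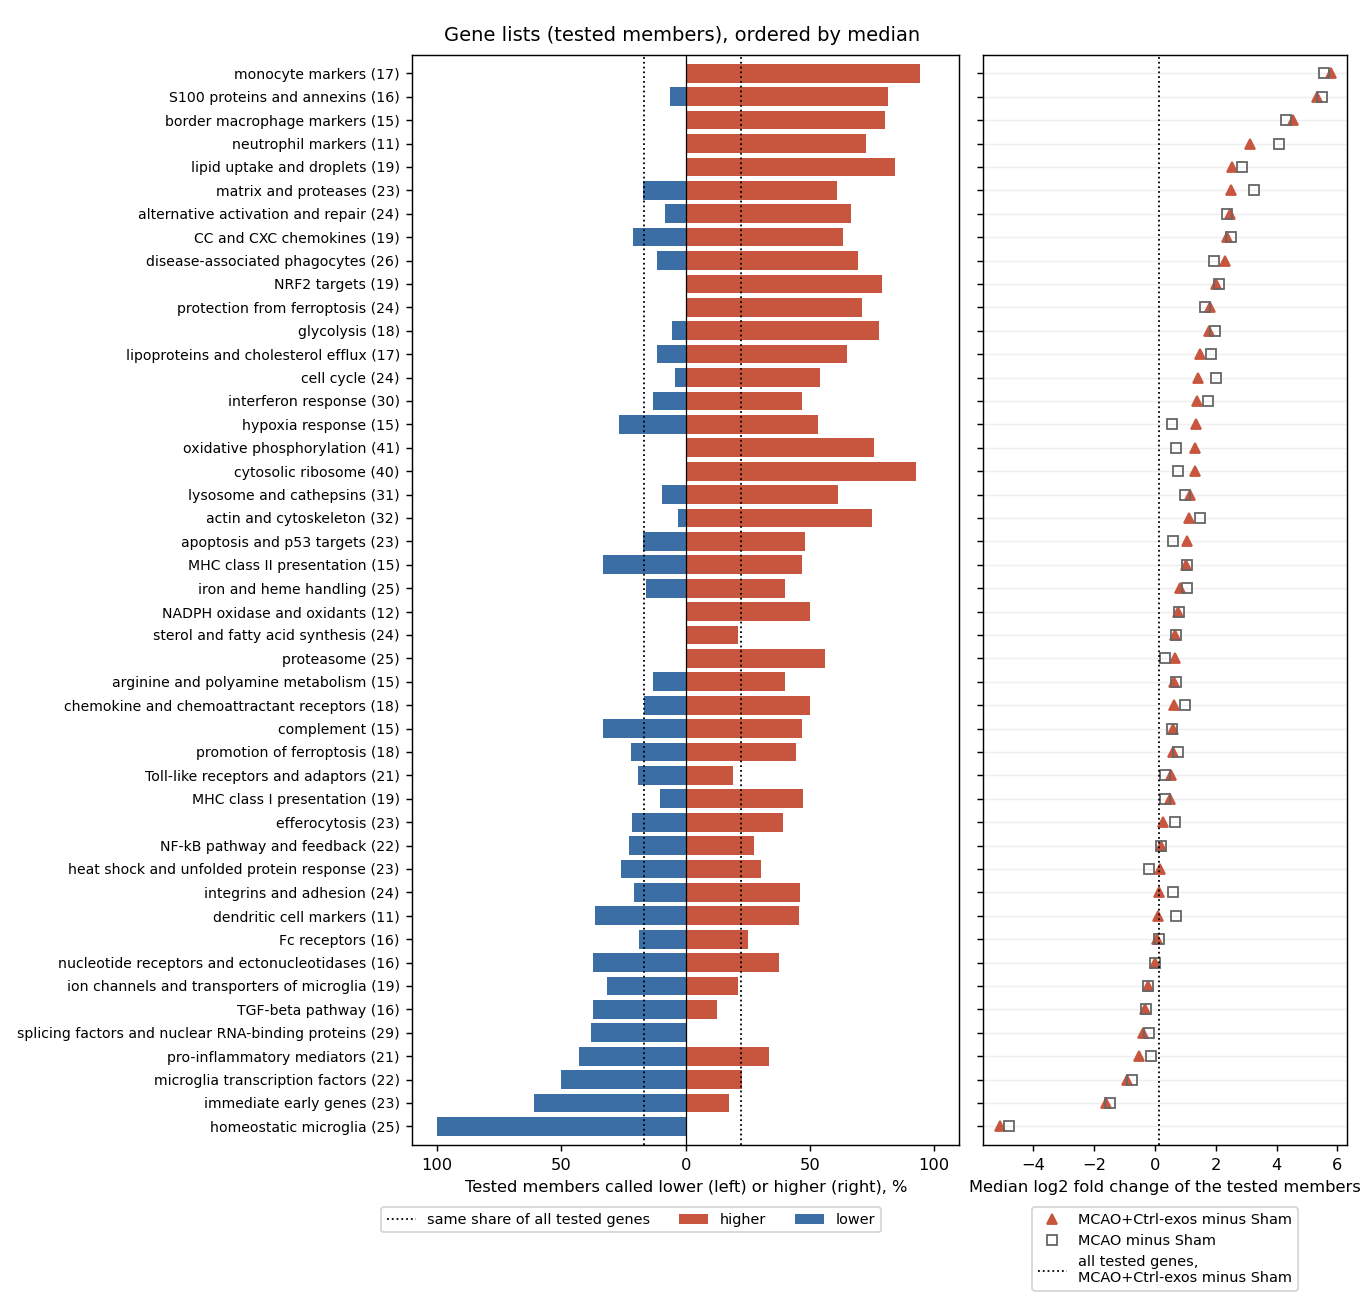
Left, the percentage of tested members of each list that passed as lower (blue, to the left) or higher (red, to the right), with dotted lines at 16.6% and 22.1%, the shares of all tested genes; right, the median log2 fold change of each list for MCAO+Ctrl-exos (triangles) and for MCAO (squares), both minus the same Sham libraries. The homeostatic microglia list lies at -5.12 at the bottom and the monocyte marker list at 5.79 at the top.

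Markers of other CD45 and CD11b bearing cells were higher too. Of 17 tested monocyte markers 16 rose, of 15 border macrophage markers 12 and of 11 neutrophil markers 8, and none fell. The monocyte markers in the table summed to 411 to 792 FPKM in Sham and 9510 to 18604 FPKM in MCAO+Ctrl-exos, the border macrophage markers to 227 to 332 and 4844 to 5408 FPKM, and the neutrophil markers to 76.8 to 144 and 1854 to 3681 FPKM. MCAO+Ctrl-exos replicate 3 had the highest monocyte and the lowest neutrophil marker sum of its group, and replicate 1 the reverse. S100a8 alone held most of the neutrophil sum in each of these libraries. The receptor gene Cxcr2, of the same list, did not pass, at 3.9 to 8.43 FPKM in Sham and 5.46 to 14.87 FPKM in MCAO+Ctrl-exos. Ly6c2, a marker of inflammatory monocytes, stood at 0.46, 0.34, 0.31 and 0.32 FPKM in Sham and 89.02, 446, 498 and 481 FPKM in MCAO+Ctrl-exos. Of the marker genes in the table, 11 of 18 monocyte, 10 of 15 border macrophage and 9 of 12 neutrophil genes had a mean below 1 FPKM in Sham, and 1, 1 and 0 had one in MCAO+Ctrl-exos. Of the tested members, 9, 8 and 7 reached 1 FPKM in only 1 of the 2 groups, so they could enter the test through their high group alone. Ly6g, the defining neutrophil gene, was listed at 0 in 7 of the 8 libraries and at 9.25 FPKM in MCAO+Ctrl-exos replicate 2. The part of these cells in the rises of phagocyte, chemokine, matrix, S100 and MHC class II genes, and in the fall of microglial genes, was not tested.

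Among markers of cells outside the sort, those in the table for neurons, for T and NK cells and for endothelium were low. The table held 6 of 13 neuron, 5 of 16 T and NK cell, 9 of 16 endothelial and mural and 2 of 10 B cell markers. Low sums thus cover only part of each list. Neuron markers summed to 4.51 FPKM or less in each Sham library and 1.34 FPKM or less in each MCAO+Ctrl-exos library, with none of 6 tested. Rbfox3 and Snap25, which mark mature neurons, were at 0.83 FPKM and 0 at most in MCAO+Ctrl-exos. T and NK cell markers summed to 10.4 to 29.8 and 11.1 to 19.2 FPKM, and endothelial and mural markers to 3.33 to 9.06 and 5.88 to 10.8 FPKM. Il7r alone held most of the T and NK cell sum in each of these libraries. Astrocyte markers summed to 58.2 to 107 FPKM in Sham and 1.4 to 6.53 FPKM in MCAO+Ctrl-exos. Nearly all of the Sham sum was Slc1a3, a glutamate transporter gene that also stands in the microglial transporter list, at 62.5, 56.9, 107 and 78.01 FPKM. Of the 3 tested astrocyte markers 1 rose, 1 fell and 1 did not pass. Oligodendrocyte markers summed to 12.96 to 32.22 FPKM in Sham and 31.1 to 71.9 FPKM in MCAO+Ctrl-exos. Of the 3 tested ones 1 rose, 1 fell and 1 did not pass. The one that rose was Mbp, a myelin gene, from 3.38, 2.23, 9.8 and 4.46 FPKM to 46.05, 21.3, 13.8 and 21.6 FPKM. Erythroid markers summed to 2 to 93.3 FPKM in Sham, highest in replicate 4, and 5.79 to 70.8 FPKM in MCAO+Ctrl-exos. B cell markers summed to 8.67 to 50.01 and 2.43 to 4.45 FPKM. Platelet and plasma transcripts were not low in Sham, at 248 to 568 FPKM against 161 to 169 FPKM in MCAO+Ctrl-exos, and their Sham sums were above the neutrophil sums of those libraries. Gp9, one of them, stood at 46.5, 65.6, 36.3 and 81.4 FPKM in Sham and 0.07 FPKM or less in MCAO+Ctrl-exos. Of the 4 tested ones only Gp9 fell and 3 did not pass, among them Gp1ba, at 0.81 to 4.9 FPKM in Sham. Which cells these transcripts came from was not tested.

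**Figure D4:**
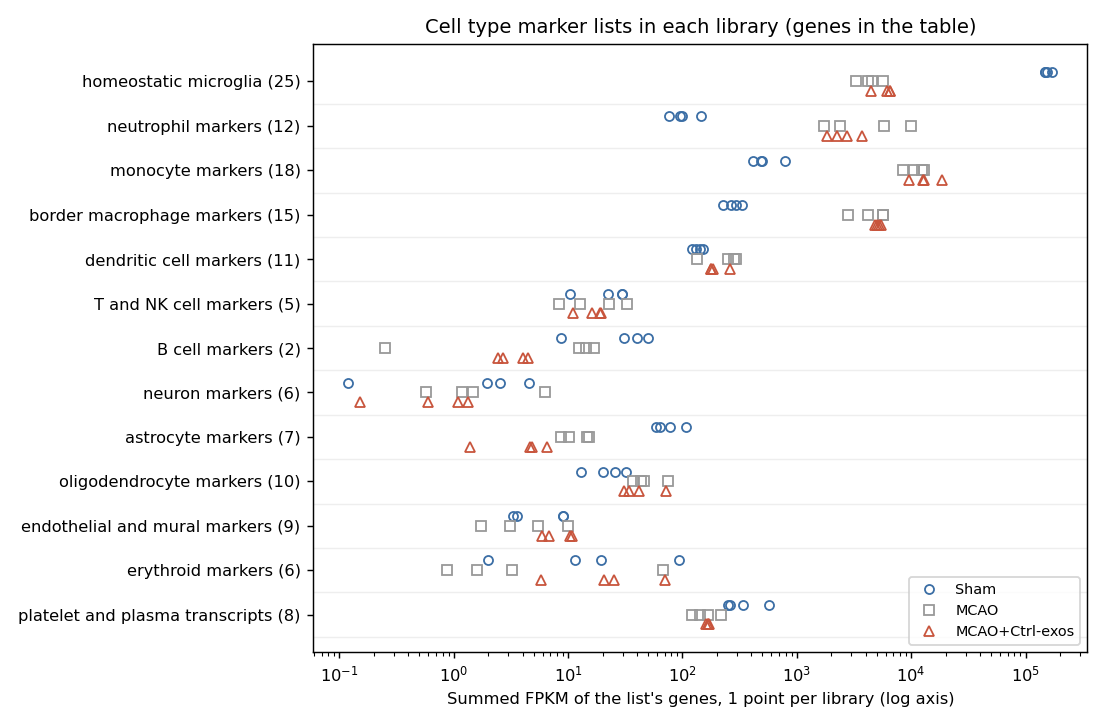
Summed FPKM of the genes of each marker list in each library, on a log axis, with the number of genes in the table in brackets. Monocyte, border macrophage and neutrophil sums of the MCAO and MCAO+Ctrl-exos libraries lie above all Sham libraries, the homeostatic microglia sum lies below them, and neuron marker sums are at most 6.28 FPKM. Most of the homeostatic microglia sum in Sham is Cst3.

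Stroke without exosomes, set against the same Sham libraries, gave 4254 called genes (39.2%). The 2 sets of values share their controls, so they are given side by side. P2ry12 had a log2 fold change of -7.24 with control exosomes and -6.41 without, Fabp5 10.28 and 9.69, Spp1 10.01 and 9.97, Arg1 8.40 and 9.17, and Egr1 -5.13 and -4.14. The test of the difference is MCAO+Ctrl-exos against MCAO, and none of these 5 genes passed it. It called 8 of 10846 genes (0.0738%) in limma, with 1181 genes at an unadjusted p below 0.05. The count was 3 to 11 under other filters, 59 with quality weights per library and 89 without MCAO+Ctrl-exos replicate 1. It was 5, 5 and 2 without MCAO+Ctrl-exos replicates 2, 3 and 4, and 4 and 5 without MCAO replicates 1 and 3. Which of the 8 genes stayed called in each setting was not examined. None of the 25 homeostatic microglia genes was among the 8. Ribosomal protein genes had 37 rises with control exosomes and 27 without, with medians of 1.3 and 0.75, and respiratory chain genes 31 and 23, with medians of 1.31 and 0.70. None of the 40 and 1 of the 41 passed the test of the difference.

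Of the 8 genes 3 were lower with control exosomes than without. Rpgrip1, which encodes a protein of photoreceptor cilia, stood at 12.7, 18.8, 17.2 and 7.03 FPKM in Sham, 19.8, 22.8, 40.98 and 20.1 FPKM after MCAO alone and 0, 0.3, 0.64 and 0.2 FPKM in MCAO+Ctrl-exos. It fell against Sham (-3.48 ± 0.36) and against MCAO (-4.35 ± 0.36, adjusted p = 2.09e-06), with no overlap of MCAO+Ctrl-exos with either group. Gstp2, a glutathione transferase gene with a near-identical copy, stood at 0, 1.85, 1.87 and 9.55 FPKM in Sham, 10.3, 14.8, 26.6 and 18.8 FPKM after MCAO alone and 0, 0, 0.18 and 0.27 FPKM in MCAO+Ctrl-exos, so it was highest in MCAO. Its call against Sham (adjusted p = 0.0427) was lost without Sham replicate 2, 3 or 4 or any 1 MCAO+Ctrl-exos replicate, with adjusted p of 0.06 to 0.173. Zfp930, a zinc finger gene, stood at 8.63, 7.38, 19.5 and 7.02 FPKM in Sham, 11.7, 3.86, 6.42 and 7.85 FPKM after MCAO alone and 0.08, 2.16, 0.09 and 0.97 FPKM in MCAO+Ctrl-exos.

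The other 5 genes were higher with control exosomes than without. Uqcr11, whose protein sits in complex III of the respiratory chain, stood at 441, 463, 402 and 443 FPKM in Sham, 505, 563, 547 and 621 FPKM after MCAO alone and 1011, 1676, 1347 and 1823 FPKM in MCAO+Ctrl-exos, and rose against both (1.71 ± 0.20 and 1.36 ± 0.20). With length and GC trends removed and quantile normalization its rise against Sham was 0.30 and did not pass (adjusted p = 0.151). Pfdn5, a prefoldin chaperone subunit gene, stood at 649, 542, 557 and 493 FPKM in Sham, 273, 273, 202 and 266 FPKM after MCAO alone and 400.0, 786, 703 and 920.0 FPKM in MCAO+Ctrl-exos. The MCAO libraries were the low ones, and MCAO+Ctrl-exos did not pass against Sham (0.27 ± 0.24). Ccdc58 was also lowest after MCAO alone, at 24.2, 28.9, 37.1 and 24.9 FPKM in Sham, 10.2, 10.3, 3.49 and 3.68 FPKM after MCAO alone and 17.6, 29.3, 28.8 and 32.1 FPKM in MCAO+Ctrl-exos. Mrps16, a mitochondrial ribosome gene, and Fkbp2, a prolyl isomerase gene of the endoplasmic reticulum, differed from MCAO by 1.55 ± 0.28 and 1.43 ± 0.27. Their adjusted p in that limma test was 0.0394 and 0.0465, and that of Ccdc58 was 0.0394, each close to the threshold of 0.05. Against Sham Fkbp2 rose by 0.84, but did not pass with quantile normalization (0.28, adjusted p = 0.404), equal totals (0.61, 0.0576), length and GC trends removed (0.24, 0.49) or without MCAO+Ctrl-exos replicate 4 (0.74, 0.0559). In MCAO+Ctrl-exos replicate 1 was the lowest library of all 5 genes.

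**Figure D5:**
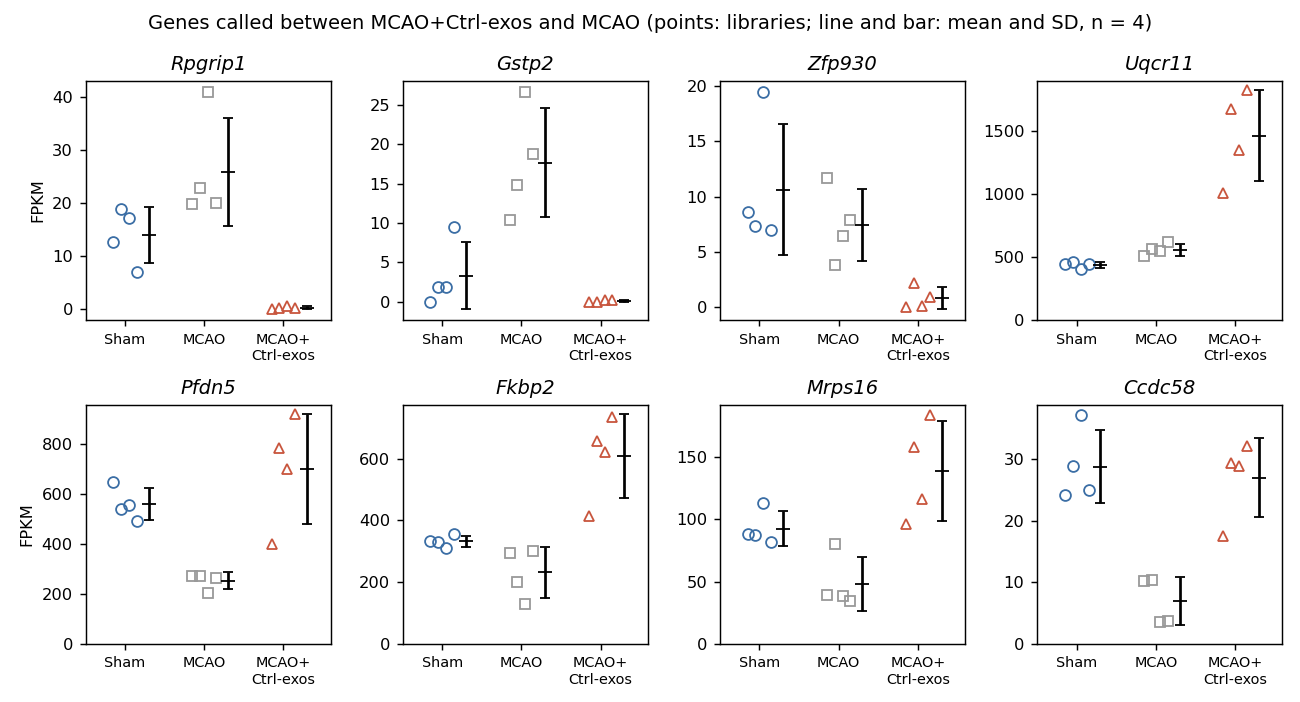
FPKM of the 8 genes called between MCAO+Ctrl-exos and MCAO in each Sham, MCAO and MCAO+Ctrl-exos library, with the mean and SD of the 4 libraries beside the points. Rpgrip1, Gstp2 and Zfp930 are near 0 in MCAO+Ctrl-exos, at 0.64, 0.27 and 2.16 FPKM at most, and the other 5 are lower in MCAO than in MCAO+Ctrl-exos.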

How the data were processed

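RNA of sorted CD45 and CD11b stained cells was sequenced in 16 libraries, 4 per group. The authors made the deposited FPKM values with HISAT2, Bowtie2 and RSEM 1.3.1 on GRCm39.p6, per the submitters' processing notes, which give no roles or settings. No header names the unit. FPKM was inferred from the tools and from length-weighted sums of 78.5 to 89.5% of a full FPKM table, and without counts the depth and its error are unknown. The 16 single files equal the table of 13982 genes. Nothing in the labels says that libraries come from separate mice, so p-values measure the spread between libraries.

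The 10846 genes that reached 1 FPKM in 4 or more libraries were fitted as log2(FPKM + 1), pseudocount 1, with 1 mean per group over all 16 libraries, in limma 3.58.1 (R 4.3.3) with trend and robust variances. Adjusted p-values are Benjamini-Hochberg over these genes. Many lists hold members that reached 1 FPKM in only 1 of the 2 groups compared, and those could enter the test through that group. Errors after ± are standard errors of the log2 fold change (n = 4 per group). The script was tested on simulated data. Same-numbered Sham and MCAO+Ctrl-exos libraries did not deviate together (residual r of -0.07 to 0.02). The range was -0.031 to 0.035 for Sham and MCAO and -0.009 to 0.038 for MCAO and MCAO+Ctrl-exos, so no replicate block was used. Length and GC content were known for 10622 tested genes.

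Alternatives were no variance trend, quantile or total scaling, other filters, a pseudocount of 0.1, a replicate block, removal of length and GC trends, quality weights, 8 libraries only and each library left out. Length and GC removal followed by quantile normalization was added after seeing the data. The comparison and the 54 gene lists were chosen with earlier results of these data known. Named genes come from the 15 largest changes per direction among called, non-overlapping genes of the upper 50% by level without predicted models, up to 4 members per list with the smallest p and up to 2 of the opposite direction, genes called against MCAO, and a fixed set that includes Gpx4, Apoe and P2ry12. This rule gave 240 genes, and not all of them are named here. Ptprc, Itgam, Ly6c2, Ly6g, Cxcr2, Rbfox3, Snap25, C1qa, C1qb, C1qc, Csf1r and the genes whose promoters are shown or described were chosen after their values were seen. Near-identical genes (Ifitm, H2, Gstp) can share reads.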

Additional observations from a re-analysis of the deposited data

Results flagged for a closer look

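In groups of 4 libraries, a library was marked where its gap to the nearest other exceeded Dixon's critical share of the group's range. Among 302 groups (151 genes) 24 were marked, and chance alone marks about 1 in 20 groups. Of the 24, 8 were in Sham replicate 4. For Apoc1, Cfb, Bcl3, Dusp5 and Nr1h3 the other Sham libraries were all at 0, so any value above 0 is marked. The marks of Bhlhe40 and Oas3 in Sham rest on values of 0.13 FPKM or less.

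Sham replicate 4 lay apart at 4.98 FPKM of Apoc2, 2.85 FPKM of Bcl3, 1.53 FPKM of Cd44, 2.86 FPKM of Dusp5, 15.94 FPKM of Mcoln1 and 36.27 FPKM of S100a4, all high for its group. It was also high for Cx3cr1 (1353.67 FPKM) and low for Cd86 (142.33 FPKM). Sham replicate 1 was high for Apoc1 (0.23 FPKM), Cfb (0.02 FPKM) and Vegfa (2.4 FPKM) and low for Bst2 (47.29 FPKM). Sham replicate 2 was low for Bhlhe40, listed at 0.0 FPKM, and for Oas3 at 0.05 FPKM. Sham replicate 3 was high for Ifitm6 (11.04 FPKM) and Nr1h3 (0.82 FPKM).

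MCAO+Ctrl-exos replicate 1, the library with the low total, was low for Cst3 (2179.36 FPKM) and Ly6c2 (89.02 FPKM) and high for Junb (413.91 FPKM) and Tgfbr1 (48.9 FPKM). Replicate 2 was high for Apoc1 (256.9 FPKM) and Cfb (17.65 FPKM). Replicate 4 was low for Fosl2 (33.73 FPKM) and high for Tlr7 (39.24 FPKM).

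The change from Sham differed between stroke with control exosomes and stroke alone in 8 genes by the limma test of MCAO+Ctrl-exos against MCAO. The differences, as log2 values, were -4.35 for Rpgrip1, -4.0 for Gstp2 and -2.28 for Zfp930. They were 1.93 for Ccdc58, 1.55 for Mrps16, 1.43 for Fkbp2, 1.41 for Pfdn5 and 1.36 for Uqcr11.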

How the results depend on the processing

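The 4194 genes called against Sham became 3618 to 4224 over 21 settings, 3706 to 4224 with 1 library left out, and 4115 with a replicate block. Between MCAO+Ctrl-exos and MCAO 8 genes were called, against 5 with the replicate block and 2 when length and GC trends were removed with that block. The count was 2 without the variance trend, 3 without a filter or with the 8 libraries alone, 5 with equal totals, 4 with length and GC trends removed and 4 with quantile normalization added, 59 with quality weights, and 2 to 89 with 1 library left out. Of 142 called genes named here, 133 kept direction and call in every setting. Most of them were named for a small p or a large change in these same data, so this count is no test.

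Differences from Sham that changed sign follow, with the value as reported in brackets. Ccdc58 (-0.10) was 0.044 with length and GC trends removed, with or without the block, and -0.20 to 0.082 with 1 library left out. Pfdn5 (0.27) was -0.48 with quantile normalization, -0.21 with length and GC trends removed, with or without the block, and -0.77 with both corrections, where it passed as lower (adjusted p = 0.0038). Fkbp2, called at 0.84, was -0.23 there. Itgam (0.04) was -0.083 with quantile normalization, -0.19 with equal totals, -0.010 with length and GC trends removed, with or without the block, -0.048 with quality weights, -0.11 with both corrections and -0.11 to 0.15 with 1 library left out. Ptprc (-0.13) was 0.54 with length and GC trends removed, with or without the block, 0.43 with both corrections and -0.28 to 0.074 with 1 library left out. The NF-kB list median was -0.16 with both corrections. The cause of these changes was not tested. Depth is unknown, so precision rests on the spread of 4 libraries.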
